A study of Mus musculus with 8 samples.

Results

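The expression of 9 genes of the cardiac Z-disc and its stress-responsive partners was followed in mouse left ventricle after a low salt or a normal salt diet. They were chosen by name and comprise Ankrd1, Csrp3, Xirp1, Xirp2, Tcap, Myoz2, Ldb3, Actn2 and Fhl1. These 9 genes had 11 probes among the 39429 non-control probes of the array. Of these 11 probes, 10 were well above background in at least 4 of the 8 samples and entered the test, out of 23236 probes tested.

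The series asked what dietary salt does to gene expression in the heart. The low salt group held 4 male mice of the inbred laboratory strain C57Bl/6j given chow with 0.05% sodium for 8 weeks. The normal salt group held 4 male mice of the same strain given chow with 0.4% sodium over the same period. All were killed at 16 weeks of age, and neither group carried a transgene or a deletion, as far as the labels say. RNA of the whole left ventricle was labelled with Cy3 or Cy5 and hybridised to Agilent 2-colour arrays, 4 in all, on 1 slide. Each array held 2 mice of the same diet, mice 1 and 2 or mice 3 and 4. Diet and an array's place on the slide cannot be told apart.

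The Z-disc is the plate at each end of a sarcomere in which actin filaments and the giant spring protein titin are anchored. Alpha-actinin crosslinks the actin, and a set of small adaptor proteins attaches titin, actin and signalling enzymes to it. Several of these adaptors move between the Z-disc and the nucleus or change in amount when the ventricle is stretched or overloaded, which is why they are read as mechanical stress genes in the heart.

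The probes are 60 bases long. The first 30 bases of 5 of them are shown. These are the Ankrd1 probe, which carries the largest difference of the set, and the pairs of probes to Ldb3 and to Actn2. Each pair reads different parts of the same gene, and whether position bears on the values was not tested. The bases run 5′ to 3′ and were taken from the array's own annotation.
Ankrd1: cccctttgtgttctcacttgcataaagcta
Ldb3 variant 7: aactcccacaagtggagtctctgtacaccc
Ldb3 variant 1: gcatagtgttaagattaaggctgaatgtcg
Actn2 first probe: ttcaaccactttgacaggagaaagaacggc
Actn2 second probe: tagcattcaggaagctaagacaggaggatc
On the mm9 build the Ankrd1 probe lies at chr19:36186809-36186868 on the minus strand. The Ldb3 variant 7 probe lies at chr14:35374689-35374748 and the Ldb3 variant 1 probe at chr14:35340222-35340281, both on the minus strand, and their starts are 34467 bases apart. The first Actn2 probe spans chr13:12364990-12367362, a stretch longer than the probe. The second Actn2 probe, designed on a separate transcript record, lies at chr13:12400548-12400607. Exon and untranslated region annotation of this build was not used here.

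The arrays had a median spot intensity between 116 and 147 and a median local background between 15.5 and 33.5 over the samples, with 53.0% to 66.3% of spots well above background. All 10 ventricular cardiomyocyte markers examined were measured, and their summed level was, on the log2 scale, 20.53 to 21.20 in low salt mice, against 20.66 to 21.40 in normal salt mice. In ventricle pieces, fewer cells of a type and less RNA per cell cannot be told apart. Signal was uneven over the arrays: a part was called uneven where the median difference between diets of the surrounding spots passed 0.20 on the log2 scale. Such parts held 10.9% of the probes tested and 91.5% of the 189 probes past the threshold, so the local difference is given beside each result that it touches.

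Of the 10 member probes, 3 were higher and 7 lower in low salt than in normal salt mice, and 0 passed an adjusted p of 0.05 in limma, against 0.813% of all probes tested. Of the 10, 1 probe, that of Ankrd1, had an unadjusted p under 0.05, against 11.1% of all probes. In 1 of the 10, again Ankrd1, all low salt mice lay above all normal salt mice measured, which 7.78% of all probes did. The opposite order, every low salt mouse below every normal salt mouse, was seen in 0 of the 10 and in 4.94% of all probes. With 1 probe a gene, the brightest, the median difference of the 9 genes was -0.03 on the log2 scale, beside 0.01 for all 18319 genes. The standard errors ranged from 0.11 to 0.26.

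**Figure D1:**
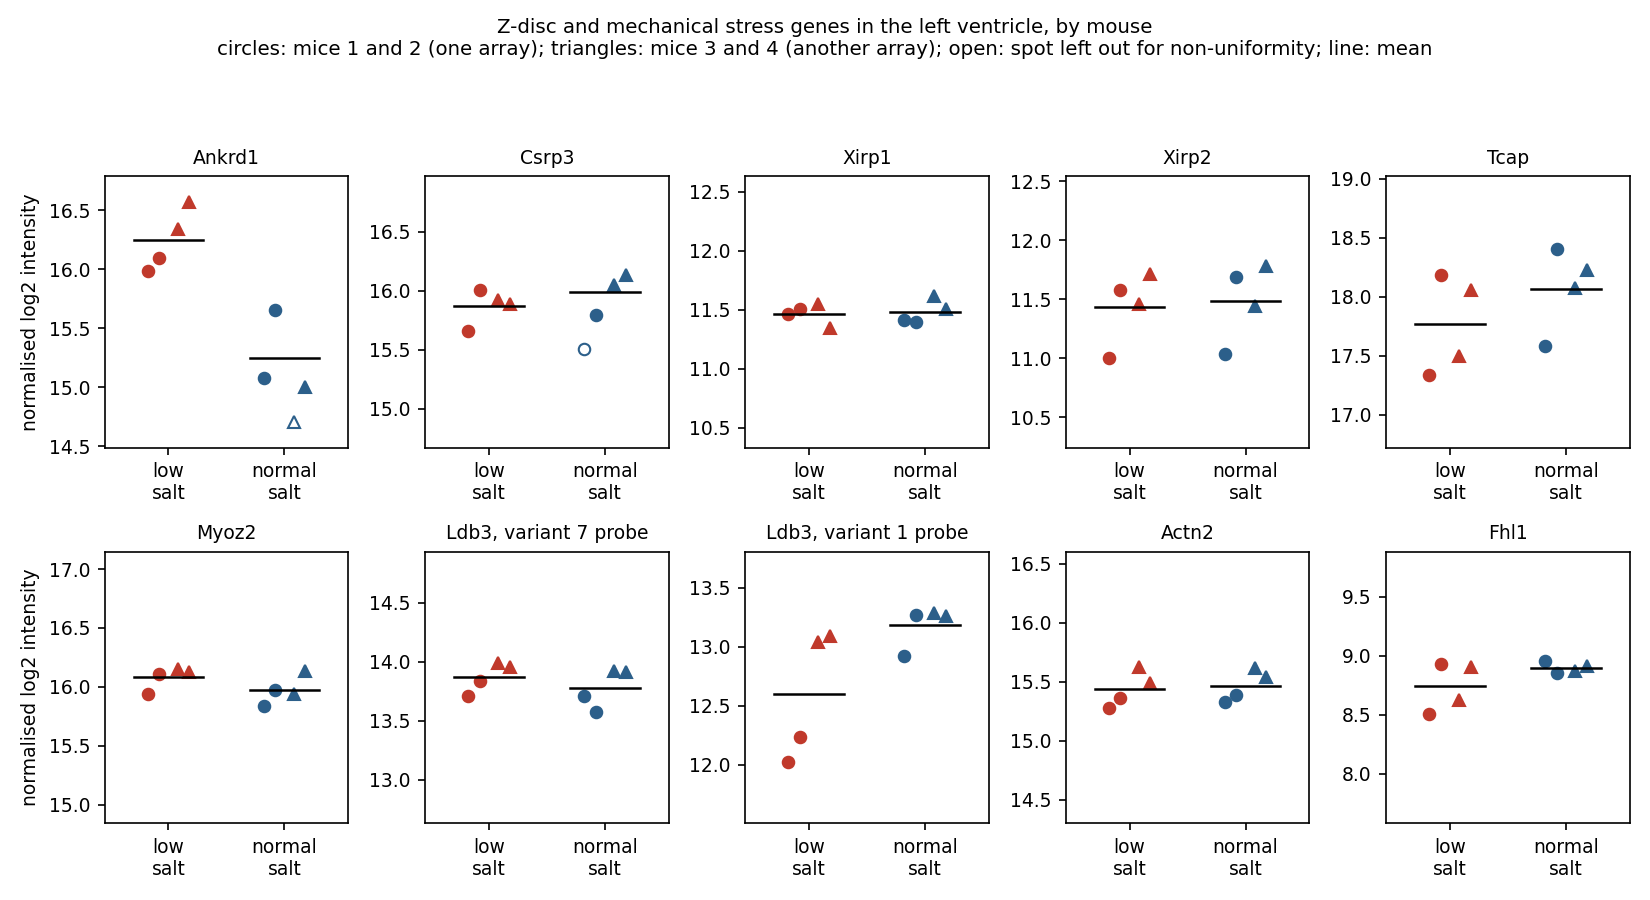
Normalised log2 intensity of the 10 member probes tested, in low salt mice at the left and normal salt mice at the right of each panel. Circles are mice 1 and 2 of a diet, which share an array, triangles are mice 3 and 4, open symbols are 2 spots left out as non-uniform, and lines are means; all panels cover an equal log2 range. Ankrd1 is the panel in which the diets do not overlap, and the Ldb3 variant 1 probe is low in low salt mice 1 and 2.

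Ankrd1 encodes the cardiac ankyrin repeat protein, which binds the spring region of titin, travels to the nucleus and is known as an early transcript of the overloaded ventricle. Its log2 intensity was 15.98, 16.10, 16.34 and 16.57 in low salt mice 1 to 4, against 15.08, 15.66 and 15.00 in normal salt mice 1, 2 and 4. The spot of normal salt mouse 3 carried the scanner's flag for non-uniform pixels and was left out. The low salt mice averaged 16.25 ± 0.26 (SD, n = 4) and the normal salt mice 15.25 ± 0.36 (n = 3), and the lowest low salt mouse stood above the highest normal salt mouse. The fitted difference was 1.10 ± 0.23 (SE), with a 95% interval of 0.56 to 1.64, a 2.14-fold higher signal. Its unadjusted p was 0.00172, and its limma adjusted p of 0.108 did not pass the threshold.

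The left-out spot bears on this value. Its pixels had an SD of 29.4% of their mean, and the Cy5 channel of the same spot, which is normal salt mouse 4 and was not flagged, had 25.5%. In the other samples the pixel SD of the Ankrd1 spot ran from 5.14% to 9.02%. With the flagged value kept, normal salt mouse 3 read 14.71, the lowest of all mice, the difference was 1.14 and the adjusted p 0.0621. Without normal salt mouse 4 the difference was 0.88 (adjusted p = 0.243), and this rests on normal salt mice 1 and 2 alone. The spot was bright in every sample, at 1221 to 4421 times its local background, and none was saturated.

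The difference was much the same in both dyes, at 1.08 among Cy3 samples and 1.01 among Cy5 samples. With normal salt mouse 3 left out, the Cy3 value rests on normal salt mouse 1 alone for that diet. The low salt arrays averaged 16.04 for mice 1 and 2 and 16.46 for mice 3 and 4. The normal salt array of mice 1 and 2 averaged 15.37, and that of mouse 4 gave 15.00. In the order of Ankrd1 levels, therefore, both low salt arrays came before both normal salt arrays, and each diet's arrays differed by less than the diets did. Over all alternatives run the difference stayed between 0.87 and 1.33. Its adjusted p ranged from 0.0431, in the fit that treats the mice of an array as independent, to 0.547 with no normalisation between arrays.

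The Ankrd1 spot stands beside, but not within, the uneven part at the left of the arrays. It is at row 240 and column 18. Among the probes in rows 230 to 250, the median difference was 0.51 over the 78 probes of columns 3 to 9 and 0.30 over the 66 probes of columns 10 to 15, to its left. Within columns 16 to 20 the median of 49 other probes was -0.04, and 0 of them had a difference above 1. That count says little, since only 100 of all 23236 probes tested had a larger rise than Ankrd1. Further to the right the medians were -0.07 over 78 probes and -0.10 over 80. The Ankrd1 difference stood far above the median of its nearest neighbours. With the local trend subtracted it was 1.09 ± 0.16 (SE; adjusted p = 0.0616), and with a narrower window, chosen after seeing the data, it was 1.14 (adjusted p = 0.0604).

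**Figure D2:**
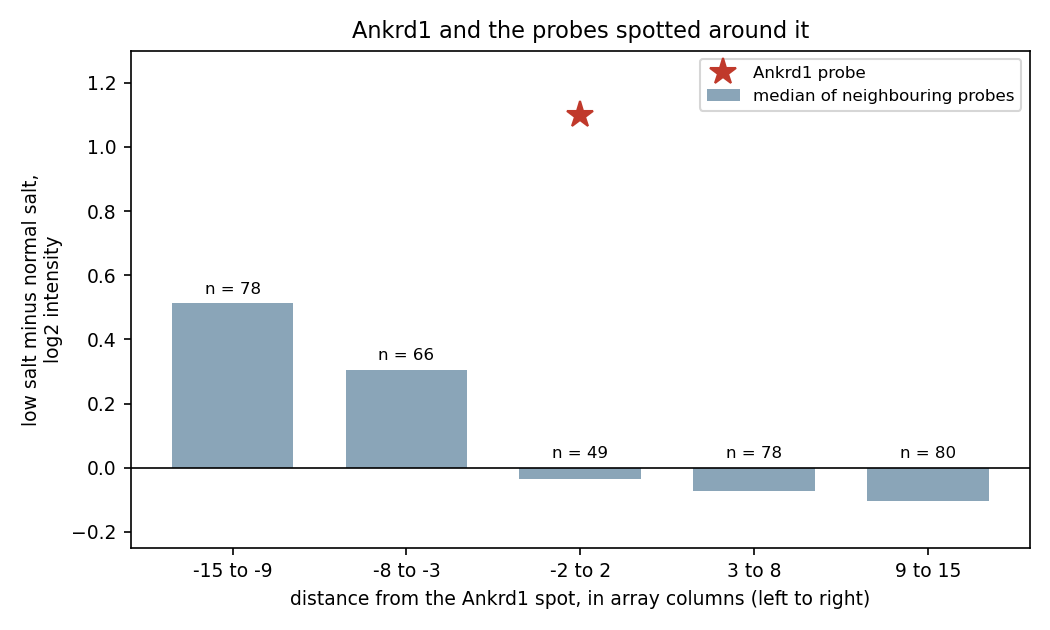
Low salt minus normal salt difference in log2 intensity of the Ankrd1 probe (star) and the median difference of the probes around it (bars), by distance in array columns over rows 230 to 250, with the number of probes above each bar. The bars are 0.51 and 0.30 at the left and lie between -0.04 and -0.10 beside Ankrd1 and to its right.

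Among all probes Ankrd1 ranked 369 by p, and 100 probes had a larger positive difference, of which 50 stood in even parts. The 3 named genes nearest to Ankrd1 over the 7 mice, by root mean square distance between dye-centred values, were Plekha2 (0.183), Mbnl2 (0.202) and Arl2bp (0.204). The Cy3 mean used for centring left out normal salt mouse 3 in Ankrd1 but not in these genes. The distances, and the choice of genes, are therefore not like for like. All 3 genes were spotted in the uneven left part, where the local difference ran from 0.47 to 0.56, unlike that of the Ankrd1 spot at 0.02.

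The close relatives of Ankrd1 are Ankrd2 and Ankrd23, which encode the other muscle ankyrin repeat proteins bound to titin. Ankrd23 read 14.48, 14.75, 14.55 and 14.58 in low salt mice, against 13.76, 13.83, 14.00 and 14.12 in normal salt mice. All 4 low salt mice lay above all 4 normal salt mice, and the difference was 0.66 ± 0.12 (SE), a 1.58-fold higher signal, with an adjusted p of 0.0546 that just missed the threshold. Its spot stood in an even part, with a local difference of 0.02. With the local trend subtracted it was 0.64 and passed at an adjusted p of 0.0329, and over all alternatives its adjusted p ran from 0.0119 to 0.573. It was past the threshold in 5 of the 28. Ankrd2 read 7.59, 7.26, 7.45 and 7.54 in low salt mice, against 7.19, 7.08, 7.54 and 7.78 in normal salt mice, with diets that overlapped (difference 0.06 ± 0.21 SE; adjusted p = 0.929). Whether Ankrd1 or Ankrd23 differed from Ankrd2 in its response to the diet was not tested.

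**Figure D3:**
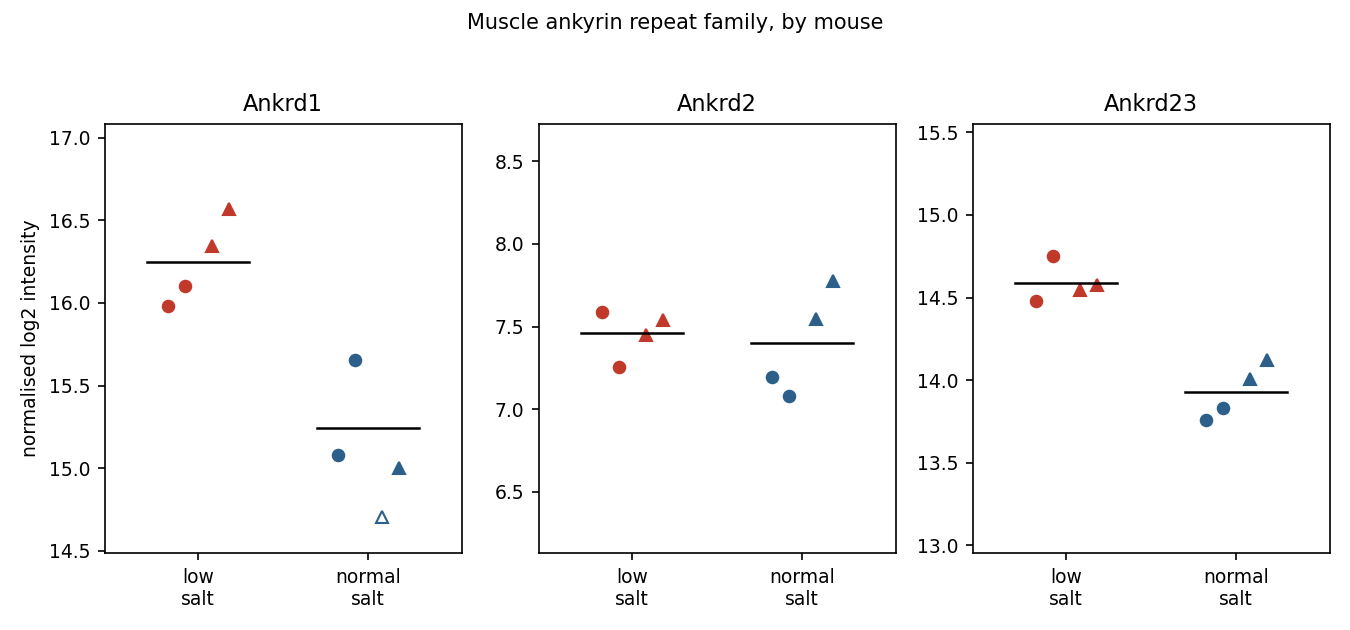
Normalised log2 intensity of the muscle ankyrin repeat genes Ankrd1, Ankrd2 and Ankrd23 by mouse, low salt at the left and normal salt at the right, with symbols as in the plot of all members (circles mice 1 and 2, triangles mice 3 and 4, open symbol a spot left out, line the mean); all panels cover an equal log2 range. The diets are apart in Ankrd1 and Ankrd23 and overlap in Ankrd2.

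Csrp3 and Fhl1 encode proteins built from LIM domains, zinc-binding modules that join other proteins. Csrp3 encodes muscle LIM protein, a Z-disc adaptor whose loss gives dilated cardiomyopathy in mice. Its level was 15.66, 16.01, 15.92 and 15.89 in low salt mice, against 15.79, 16.05 and 16.13 in normal salt mice 2 to 4. The spot of normal salt mouse 1 was flagged as non-uniform and would read 15.51, below every other mouse. The diets overlapped with and without it, and the difference was -0.07 ± 0.16 (SE; adjusted p = 0.898). The 95% interval reached from -0.45 to 0.32.

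Fhl1 encodes a LIM protein that sits with the spring region of titin and takes part in the growth response to pressure overload in mice. Its spot was at 12.6 to 31.3 times background. It read 8.51, 8.93, 8.63 and 8.91 in low salt mice, against 8.96, 8.86, 8.87 and 8.91 in normal salt mice. Low salt mice 1 and 3, both labelled with Cy3, were the lowest. The difference was accordingly -0.35 among Cy3 samples and 0.03 among Cy5 samples, and -0.16 ± 0.16 (SE; adjusted p = 0.723) in the fit of both.

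Xirp1 and Xirp2 encode the Xin repeat proteins, which bind actin filaments at the intercalated discs that join heart muscle cells. Xirp1 read 11.46, 11.51, 11.55 and 11.35 in low salt mice, against 11.41, 11.40, 11.61 and 11.51 in normal salt mice, a range of 0.26 over all 8. Its difference was -0.02 ± 0.11 (SE; adjusted p = 0.964), the smallest of the set. Xirp2 read 11.00, 11.58, 11.46 and 11.71 in low salt mice, against 11.04, 11.69, 11.44 and 11.79 in normal salt mice. The lowest mouse of each diet was mouse 1, in Cy3, and the diets ran alongside each other (difference -0.05 ± 0.17 SE; adjusted p = 0.924).

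Tcap encodes telethonin, which clasps the ends of titin molecules together in the Z-disc. Its level was 17.34, 18.19, 17.50 and 18.06 in low salt mice, against 17.58, 18.40, 18.07 and 18.23 in normal salt mice. Within each dye both low salt mice lay below both normal salt mice, by a mean of 0.40 in Cy3 and 0.19 in Cy5, while the dyes themselves stood apart. The low salt mice averaged 17.77 ± 0.41 (SD, n = 4) and the normal salt mice 18.07 ± 0.35 (n = 4). The fitted difference was -0.30 ± 0.20 (SE), with a 95% interval of -0.76 to 0.16 (adjusted p = 0.600). It was below 0 in all 28 alternatives and passed in none, but its size depended on the processing. The difference was -0.02 with the scanner software's processed signal, -0.04 with the net median signal over its median and -0.09 with no normalisation between arrays.

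Myoz2 encodes calsarcin, which tethers the phosphatase calcineurin to alpha-actinin and restrains its signalling. Its level was 15.94, 16.11, 16.15 and 16.13 in low salt mice, against 15.84, 15.97, 15.94 and 16.13 in normal salt mice. Only normal salt mouse 4 reached the upper low salt mice, and the difference of 0.11 ± 0.11 (SE; adjusted p = 0.719) was within the spread. The probe of its relative Myoz1, the calsarcin of fast skeletal muscle, read 0.46 higher in low salt mice (adjusted p = 0.241), but where the local difference was 0.39. With the local trend subtracted the Myoz1 difference was 0.08.

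Ldb3 encodes cypher, a PDZ and LIM domain protein that binds alpha-actinin and holds the Z-disc together under load. The probe of variant 7 read 13.71, 13.84, 13.99 and 13.95 in low salt mice, against 13.71, 13.58, 13.92 and 13.92 in normal salt mice. These overlapped, with a difference of 0.09 ± 0.13 (SE; adjusted p = 0.814). With the scanner software's processed signal the difference was 0.52 (limma adjusted p = 0.408). The probe of variant 1, 34467 bases away in the same gene, read 12.03, 12.24, 13.05 and 13.10 in low salt mice, against 12.92, 13.27, 13.29 and 13.26 in normal salt mice.

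Low salt mice 1 and 2, which share an array, were the lowest 2 of the 8 in that variant 1 probe, while low salt mice 3 and 4 lay within the normal salt range. The pixel SD of this spot was 28.5% and 29.4% of the mean in low salt mice 1 and 2. In the other samples it ran from 18.2% to 20.4%, and no sample was flagged. The low salt mean was 12.60 ± 0.55 (SD, n = 4) and the normal salt mean 13.19 ± 0.18 (n = 4), a difference of -0.58 ± 0.26 (SE; unadjusted p = 0.0570, adjusted p = 0.467). The value depended on the array. It was -1.05 (adjusted p = 0.0200) when the array of low salt mice 3 and 4 was left out, but -0.12 (adjusted p = 0.816) when that of low salt mice 1 and 2 was. The surroundings of the spot were uneven, at a local difference of -0.26, and with the local trend subtracted the difference was -0.32 (adjusted p = 0.393). The 3 named genes with the nearest profile, D2hgdh, Gpt2 and Msl2, had local differences from -0.21 to -0.29, and their own differences shrank to between -0.26 and -0.36 after the same subtraction.

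The gap between both Ldb3 probes within a sample, variant 1 minus variant 7, was -1.69, -1.60, -0.94 and -0.86 log2 units in low salt mice, against -0.78, -0.30, -0.63 and -0.66 in normal salt mice. It averaged -1.27 ± 0.43 (SD, n = 4) in low salt mice, against -0.59 ± 0.21 (n = 4) in normal salt mice, and the diets did not overlap. The mice of an array share it, so each diet rests on 2 arrays. The widest gaps were those of low salt mice 1 and 2, whose variant 1 spot had the largest pixel SD relative to its mean. After subtraction of the local trend the difference of the gaps was -0.52, against -0.68 before, and with the scanner software's processed signal it was -0.85. This comparison was chosen after the values were seen, and it has no test.

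Actn2 encodes the alpha-actinin of the cardiac Z-disc. Its first probe read 15.28, 15.36, 15.63 and 15.49 in low salt mice, against 15.33, 15.39, 15.62 and 15.54 in normal salt mice. In each diet mice 3 and 4 stood above mice 1 and 2, though nothing pairs the arrays of the diets. The diets overlapped, with a difference of -0.03 ± 0.13 (SE; adjusted p = 0.944) and a 95% interval of -0.33 to 0.27. The second Actn2 probe was well above background in only 1 low salt and 1 normal salt mouse and was not tested. It read 6.52 to 6.84 in low salt mice, against 6.66 to 7.02 in normal salt mice, at 2.08 to 7.39 times background.

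**Figure D4:**
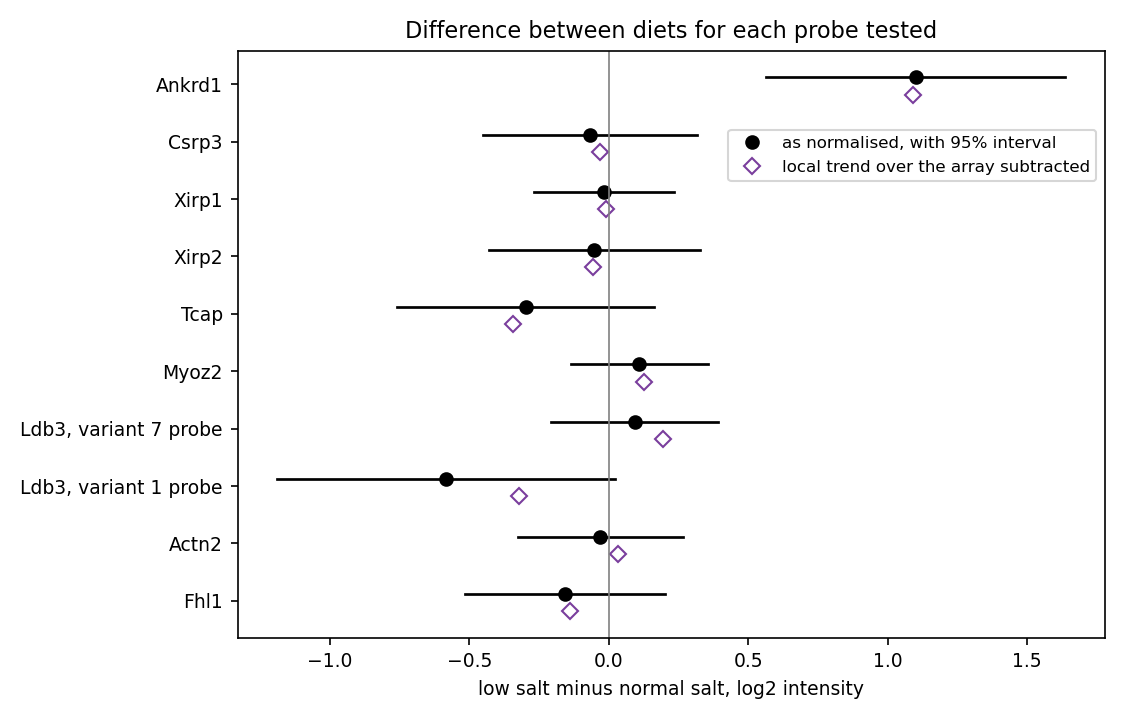
Low salt minus normal salt difference in log2 intensity for the 10 member probes tested: filled points with 95% intervals are from the fit, and open diamonds are the differences after the local trend over the array was subtracted. Ankrd1 at 1.10 is the one whose interval does not include 0, and the Ldb3 variant 1 probe is the one that the subtraction moves most, to -0.32 against -0.58.

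Around the members, 33 other genes of Z-disc proteins were measured, of which 1 rose and 0 fell past the threshold in limma. Of all 18319 genes, 149 passed it in either direction. An unadjusted p under 0.05 was reached by 5 of the 33, beside 11.4% of all genes. Of the 33, 21 were higher and 12 lower in low salt mice, with a median difference of 0.09, and 10 had their probe in an uneven part. The gene that rose was Synpo2, which encodes the actin-bundling Z-disc protein myopodin. It read 10.15, 10.06, 10.15 and 10.05 in low salt mice, against 9.29, 9.36, 8.88 and 9.04 in normal salt mice, a difference of 0.96 ± 0.14 (SE; adjusted p = 0.0231). Its local difference was 0.57, and with the local trend subtracted 0.39 remained (adjusted p = 0.248). Leaving out any 1 mouse ended the call, at adjusted p values from 0.0513 to 0.0739.

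Ttn, which encodes titin and whose protein holds Tcap and Ankrd1, was looked at after its values were seen because its array pattern resembles that of the Ldb3 variant 1 probe. It read 14.54, 14.88, 15.80 and 15.77 in low salt mice, against 15.66, 16.08, 15.81 and 15.74 in normal salt mice. As in that probe, low salt mice 1 and 2 were the lowest, here in a part of the arrays with an even signal (local difference -0.03). The difference was -0.58 ± 0.31 (SE; adjusted p = 0.524). This pattern was not particular to Z-disc genes. Low salt mice 1 and 2 were also the lowest in some listed genes of other kinds. The fibroblast marker Postn read 7.86 and 7.48 in them, against 8.54 to 9.34 in the other mice (local difference -0.16). The pericyte marker Rgs5 read 11.16 and 11.65, against 12.54 to 12.83. The spots around Rgs5 were themselves lower in low salt mice (local difference -0.24), which passed the limit of 0.20 in size. How much of the Rgs5 values this accounts for was not tested.

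Of 19 genes in the same families as the members, 17 could be tested and 0 passed in either direction, with a median difference of 0.06. Many of them, such as Csrp1, Actn1 and Fhl2, are also among the other Z-disc genes above, read from the same probes. Ankrd2 is also in the load list below, so these lists are not independent. An unadjusted p under 0.05 was reached by 4 of the 17, beside 11.4% of all genes, and 3 of the 17 had their probe in an uneven part. The costamere, the belt of integrin and dystrophin complexes that ties the Z-disc to the cell membrane, was read from 22 genes, of which 0 passed, 13 were higher and 9 lower in low salt mice, and the median was 0.02. Of the 22, 5 had an unadjusted p under 0.05, beside 11.4% of all genes, and 3 had their probe in an uneven part. The lowest p values there belonged to Itgb1bp2 and Sgca. Itgb1bp2, which encodes the integrin-binding stretch sensor melusin, read 12.84 to 12.98 in low salt mice, against 13.16 to 13.49 in normal salt mice. The diets did not overlap, in an even part of the arrays, with a difference of -0.37 ± 0.11 (SE; adjusted p = 0.236). Sgca, which encodes alpha-sarcoglycan of the dystrophin complex, gave -0.37 with the same adjusted p and overlapping diets. Close to them in p but in the other direction was Vcl, the gene of the adhesion protein vinculin, chosen after its values were seen. It read 10.06, 10.45, 10.85 and 10.94 in low salt mice, against 9.56, 10.11, 9.75 and 9.95 in normal salt mice, with diets that overlapped (difference 0.73 ± 0.21 SE; adjusted p = 0.240; local difference 0.19).

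Of 28 genes that respond to load or belong to mechanical signalling, such as Piezo1 and Yap1, 25 were tested. Of these 1 rose and 0 fell past the threshold, which 149 of all 18319 genes passed in either direction. In low salt mice 18 of the 25 were higher and 7 lower, and the median difference was 0.30, beside 0.01 for all genes. An unadjusted p under 0.05 was reached by 10 of the 25, beside 11.4% of all genes. Of the 25, 4 had their probe in an uneven part. These included Rcan1, Tead1 and Myh7, which are among the 10 and had local differences of 0.36 to 0.46. The gene that rose was Rcan1, a calcineurin target and inhibitor, at 10.88, 11.14, 11.05 and 11.24 in low salt mice, against 9.91, 10.13, 10.12 and 10.60 in normal salt mice (difference 0.89 ± 0.14 SE; adjusted p = 0.0334). Its local difference was 0.36, and the subtraction of the local trend left 0.53 (adjusted p = 0.163). The call ended, at adjusted p values from 0.0860 to 0.110, when any 1 mouse but normal salt mouse 4 was left out. Nppb and Nppa, the natriuretic peptide genes read as signs of a stretched heart, were both in this list, and neither passed. Whether they differed from each other was not tested. Nppb, chosen after its values were seen, had a difference of 1.51 ± 0.27 (SE; adjusted p = 0.0542) and diets that did not overlap, at a local difference of 0.19, just within the limit of 0.20. Nppa had a difference of 0.39 ± 0.48 (SE; adjusted p = 0.784), and the diets overlapped. It read 16.09, 15.50, 15.52 and 15.76 in low salt mice, against 14.25, 14.89, 16.14 and 16.03 in normal salt mice. Nppa also stands in the list of atrial markers, which varied widely between mice, and their part in its values was not tested. Neither Nppb nor Nppa was followed through the alternatives.

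Markers of other cells had the following values, and their part in the member results was not tested. None of the marker genes passed the threshold. Atrial markers, 6 of 7 measured, had a median difference of -0.90 and a summed log2 level of 15.76 to 16.17 in low salt mice, against 14.74 to 17.06 in normal salt mice. Nppa is one of the 6 and enters this sum. Over all mice Myl4 ran from 11.01 to 15.47, Sln from 8.79 to 13.82 and Dkk3 from 7.47 to 10.21, each highest in normal salt mouse 3. Skeletal muscle markers, 5 of 10 measured, had a median of 0.18 and a summed level of 12.69 to 13.29 in low salt mice, against 12.40 to 13.08 in normal salt mice. The medians of the endothelial, fibroblast and smooth muscle lists were -0.36, -0.13 and -0.16, and that of macrophages was 0.25. Summed levels of the fibroblast list ran from 15.25 to 16.34 in low salt mice, against 16.12 to 16.67 in normal salt mice.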

How the data were processed

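The scanner tables hold the mean intensity of each spot and its median local background per dye, per the file headers. These give the software as Agilent Feature Extraction 11.5.1.1, its protocol as GE2_1105_Oct12 and the build as mm9. The authors' deposited value table holds a ratio, the net median signal over its median in the sample. Although 100% of these ratios occur in that sample's scanner data, at most 0.375% stood at the same row number, so no gene was read from it.

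Each sample was read in its own dye. Intensities were corrected with normexp (offset 50) and normalised with loess (span 0.3) within and Aquantile between arrays in limma 3.58.1 (R 4.3.3, statmod 1.5.0). Where the local background was flagged, the channel's median background replaced it. Control and flagged spots were left out and spots of 1 probe averaged. Of the 39429 probes, 27508 were named by their accession in a RefSeq gene table of a later build and 11921 kept the name in the file. A probe well above background in 4 or more samples was tested with diet and dye as terms and array as a random block (duplicateCorrelation, correlation 0.553), 2-sided, with Benjamini-Hochberg adjustment over all probes at 0.05. Differences are low minus normal salt in log2 intensity. The local difference is the median over a window of 10 rows and 5 columns on each side.

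The members and gene lists were chosen with earlier results of these data known. Named from the lists were up to 4 called genes, or, with none called, the 2 of smallest p, and, for probes whose dye-centred values span over 1 log2 unit, the 3 genes nearest in profile; Ankrd2, Ttn, Vcl, Nppa and Nppb were added after their values were seen. Nothing says that mice of equal number share a litter, and the numbers did not pair the samples: the correlations of their deviations were 0.09, 0.03, 0.14 and -0.01. That samples come from separate mice rests on the labels. The number of arrays, 2 a diet, limits the precision of every value. Alternatives covered background correction, normalisation, filters, blocks, dyes, local trend, and each mouse or array left out.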

Additional observations from a re-analysis of the deposited data

Results flagged for a closer look

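In 2 of 42 groups of 4 mice examined, 1 mouse stood far from the other 3, where about 1 in 20 groups would by chance. In the Ldb3 variant 1 probe, normal salt mouse 1 read 12.92, against 13.26 to 13.29 in the other normal salt mice, and its gap to the nearest took up 0.929 of the group's range. In Arl2bp, one of the genes nearest in profile to Ankrd1, low salt mouse 3 read 13.23, against 13.07 to 13.08 in the other low salt mice, a gap of 0.902 of the range.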

How the results depend on the processing

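The count of probes past the threshold depended on the processing. Against 189 probes it was 42 with the scanner software's processed signal, 0 with no normalisation between arrays, with arrays averaged, in Cy3 samples alone, in Cy5 samples alone and in even parts alone, 804 with no array block, 45 with the local trend subtracted and 61 with a narrower window. With 1 array left out it was 102 (low salt mice 1 and 2), 1397 (low salt mice 3 and 4) and 347 (normal salt mice 1 and 2). Leaving out 1 mouse gave 70 to 152. With the mouse number as a replicate block it was 312, and the Ankrd1 difference was 1.04 (adjusted p = 0.141); 0 of 4 mice correlated best with the mouse of its own number. Member probes past the threshold were 1 with no array block (Ankrd1, 1.04) and 1 when low salt mice 3 and 4 were left out (Ldb3 variant 1, -1.05), and otherwise 0.

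Small differences changed sign, and the cause was not tested. With the processed signal they were 0.0031 for Csrp3, 0.062 for Xirp1, 0.0087 for Xirp2 and 0.13 for Actn2. Actn2 was at 0.034 with the local trend subtracted and 0.028 with the narrower one, and Fhl1 at 0.034 in Cy5 samples alone. Leaving out the array of normal salt mice 3 and 4 gave 0.16 for Csrp3, 0.061 for Xirp1, 0.073 for Xirp2 and 0.077 for Actn2. Leaving out low salt mice 1 and 2 gave 0.095 for Xirp2 and 0.089 for Actn2, and leaving out low salt mice 3 and 4 gave 0.00052 for Xirp1 and -0.0058 for Ldb3 variant 7, which was at -0.046 when normal salt mice 1 and 2 were left out. Leaving out 1 mouse gave -0.052 to 0.024 for Xirp1, -0.13 to 0.0041 for Xirp2 and -0.084 to 0.016 for Actn2. Ankrd1, Tcap, Myoz2 and the Ldb3 variant 1 probe kept their direction in all alternatives run, except that Tcap within Cy5 was at 0.02 with the net median signal over its median. Keeping flagged spots and the narrower window were chosen after seeing the data.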
